A study of Mus musculus with 24 samples.

Results

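The genes described here encode proteins that make ribosomes in the nucleolus: the RNA polymerase I machinery, the protein cores of small nucleolar ribonucleoproteins (snoRNPs), factors that process and assemble the small and the large ribosomal subunit, nucleolar chaperones, and the transcription factor Myc. A list of 41 genes was matched by gene symbol to the annotation of both array designs, and 40 of the 41 had at least 1 probe set with that symbol alone. Of these, 39 lay on the design whose sample titles end in MA (69 probe sets, of 22626 probe sets that are not controls) and 11 on the design whose titles end in MB (14 of 22511). Dkc1 was measured on MB only, and Npm3 had no probe set named for it alone. All 39 MA genes had a probe set that passed the filter on low signal, as did 65 of the 69 probe sets, and 10 of the 11 MB genes did.

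RNA came from C2C12 cells, a mouse myoblast line that stops dividing and fuses into multinucleate myotubes when growth medium (GM) is replaced with differentiation medium (DM). The cells had been transduced with the empty pSuperR vector or with pSuperR carrying a short hairpin RNA (shRNA) against p68, the RNA helicase encoded by Ddx5, so that the groups were vector cells and shRNA cells, each in GM and in DM. Both kinds of cell carry the same vector, and all 4 groups are the same cell line. Each group had 3 arrays per design, 24 in all. The stated aim was to study muscle gene expression under interference with p68 and p72. The hairpin sequence, whether the cells were clones or pools, and the time spent in DM are not stated in the labels.

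A ribosome begins as a long precursor RNA that RNA polymerase I copies from ribosomal DNA. Box C/D and box H/ACA snoRNPs methylate and pseudouridylate it, a large processome cuts out the small-subunit RNA, and a series of assembly factors builds the large subunit before export to the cytoplasm. Myc raises the transcription of many of these genes, often through the E-box CACGTG that it binds as a pair with Max. Ribosome production is generally high in dividing cells, and p68 has itself been described as a factor of ribosomal RNA processing.

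The signals are on the linear scale of the array software, with a trimmed mean of about 150.1 in every MA array. Changes are differences of group means of log2(signal + 15) ± the standard error from limma, with p-values adjusted by the Benjamini-Hochberg method over all 14367 MA probe sets tested, or all 19303 MB ones. Adding 15 understates the change of dim genes. A gene is called higher or lower where its adjusted p is under 0.05, and each gene is represented by its tested probe set with the highest mean. Per-array signals are given for replicates 1, 3 and 4 of vector cells in GM, replicates 2, 3 and 4 of shRNA cells in GM and replicates 1, 2 and 3 of both groups in DM on MA. Whether replicates came from separate cultures is not stated, and the p-values reflect the spread among these arrays alone, part of which may be technical.

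Ddx5, the target, had signals of 483, 420 and 489 in vector cells in GM, 351, 388 and 376 in shRNA cells in GM, 673, 541 and 408 in vector cells in DM and 373, 302 and 302 in shRNA cells in DM at its brightest MA probe set. Every shRNA array was below every vector array of the same medium. The 8 myoblast and muscle markers were all tested, and their summed signal went from between 3536 and 3883 in vector cells in GM to between 28403 and 45069 in vector cells in DM, and from between 2883 and 3311 to between 23316 and 26614 in shRNA cells. The summed signals of the macrophage (4 of 5 genes tested), endothelial (1 of 3) and osteoblast and cartilage (3 of 5) markers reached at most 297 in any array. For smooth muscle (4 of 5) the sums were 1423 to 1974 in GM and 677 to 965 in DM, and for adipocytes (1 of 5) they were 232 to 331 and 152 to 206. The MA array that stood furthest from its own group was replicate 3 of vector cells in DM, with a mean correlation of 0.951 against up to 0.983 for other arrays. In vector cells the 3′ to 5′ signal ratio of the control transcripts (log2) changed by -0.0926 from GM to DM (exact two-sided permutation p = 0.1, the smallest that 3 against 3 arrays allow) and differed by 0.00631 between shRNA and vector cells in DM (exact p = 0.9). In GM shRNA cells differed from vector cells by -0.0459 (exact p = 0.2) on MA and by -0.0993 (exact p = 0.1) on MB, and the part of this in the members' lower values with the shRNA in GM was not tested.

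Between the media, members were called in both directions. In vector cells 15 of the 39 were higher in DM and 11 were lower, beside 23.2% and 27.1% of the 8639 genes tested on MA. The 15 all belonged to the small or large subunit factors or were Nop58. The 11 lower ones held both RNA polymerase I subunits that were called, fibrillarin and Nop56, Gar1, 3 nucleolar chaperones and 3 large subunit factors. The median change over the members was 0.024 against -0.017 over all genes. In shRNA cells 12 members were higher in DM and 2 lower (16.2% and 18.9% of all genes), and the median was 0.14 against -0.020 over all genes. The 2 lower ones were 1 without replicate 1 of shRNA cells in DM or replicate 3 of shRNA cells in GM, and 4 with only the 6 shRNA arrays in the fit. Groups did not overlap in 13 members upward and 13 downward in vector cells (25.1% and 29.7% of all genes) and in 15 and 4 in shRNA cells (24.6% and 27.5%). The comparisons in vector cells and in shRNA cells share no array, and 11 genes were called higher in both, which is 11 of 15 and 11 of 12. Over all genes the corresponding overlap was 1120, which is 55.9% of the 2004 higher in vector cells and 80.2% of the 1397 higher in shRNA cells. These were Nop58, Rrp9, Nop14, Wdr43, Rrp12, Bop1, Nip7, Brix1, Rrs1, Gnl3 and Wdr74. Polr1c was lower in both.

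Every call among the members with the shRNA was downward. In GM 12 of the 39 were lower in shRNA than in vector cells and 0 were higher, beside 2.69% lower and 4.36% higher of all genes. By unadjusted p under 0.05, limma gave 20 lower and 0 higher, beside 8.62% lower and 12.6% higher of all genes. The change was below 0 in 35 of the 39, with a median of -0.33 against 0.036 over all genes, and in 21 members every shRNA array lay below every vector array (13.1% of all genes). In DM 9 were lower and 0 higher, beside 6.67% lower and 12.1% higher of all genes, with 17 lower and 0 higher by unadjusted p (11.4% and 19.8% of all genes). There the change was below 0 in 33 of the 39, the median was -0.27 against 0.062, and 14 members had groups that did not overlap downward (12.5% of all genes). With only the 6 DM arrays in the fit, 5 were lower. In both media 0 members were called higher under every alternative setting and with each array left out in turn. The count in GM depended on single arrays: it was 5 without replicate 3 of vector cells in GM, 7 without replicate 4 of that group or replicate 3 of shRNA cells in GM, and 16 without replicate 3 of vector cells in DM. With each array centred on its median, the calls over all genes went from 377 higher and 232 lower to 275 and 295 in GM, and from 1048 and 576 to 763 and 766 in DM.

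The shRNA comparisons in GM and in DM share no array. Nhp2, Noc4l, Rrp12 and Wdr74 were lower in both, which is 4 of 12 and 4 of 9, while over all genes 61 were, which is 26.3% of the 232 lower in GM and 10.6% of the 576 lower in DM. Fbl, Nop56, Nop10, Gar1, Nop16, Noc2l, Grwd1 and Mybbp1a were called in GM and not in DM, and Imp4, Wdr43, Bop1, Wdr12 and Myc in DM and not in GM. A call in one medium alone does not show that the media differ, and the interaction, which is the DM against GM change in shRNA cells minus that in vector cells, was tested for this. It passed for 3 of the 39 members: Fbl and Gar1, whose interaction was above 0, and Wdr43, whose interaction was below 0 (6.01% above and 4.57% below 0 of all genes). The number was 6 without replicate 3 of vector cells in DM and 1 without any one of replicates 2 and 3 of shRNA cells in DM, replicate 2 of vector cells in DM, replicate 3 of shRNA cells in GM, or replicates 3 and 4 of vector cells in GM. At the probe set used, the members called in none of the 5 comparisons were Polr1a, Polr1e, Ubtf, Imp3, Pes1, Nop2 and Rrp1b.

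**Figure D1:**
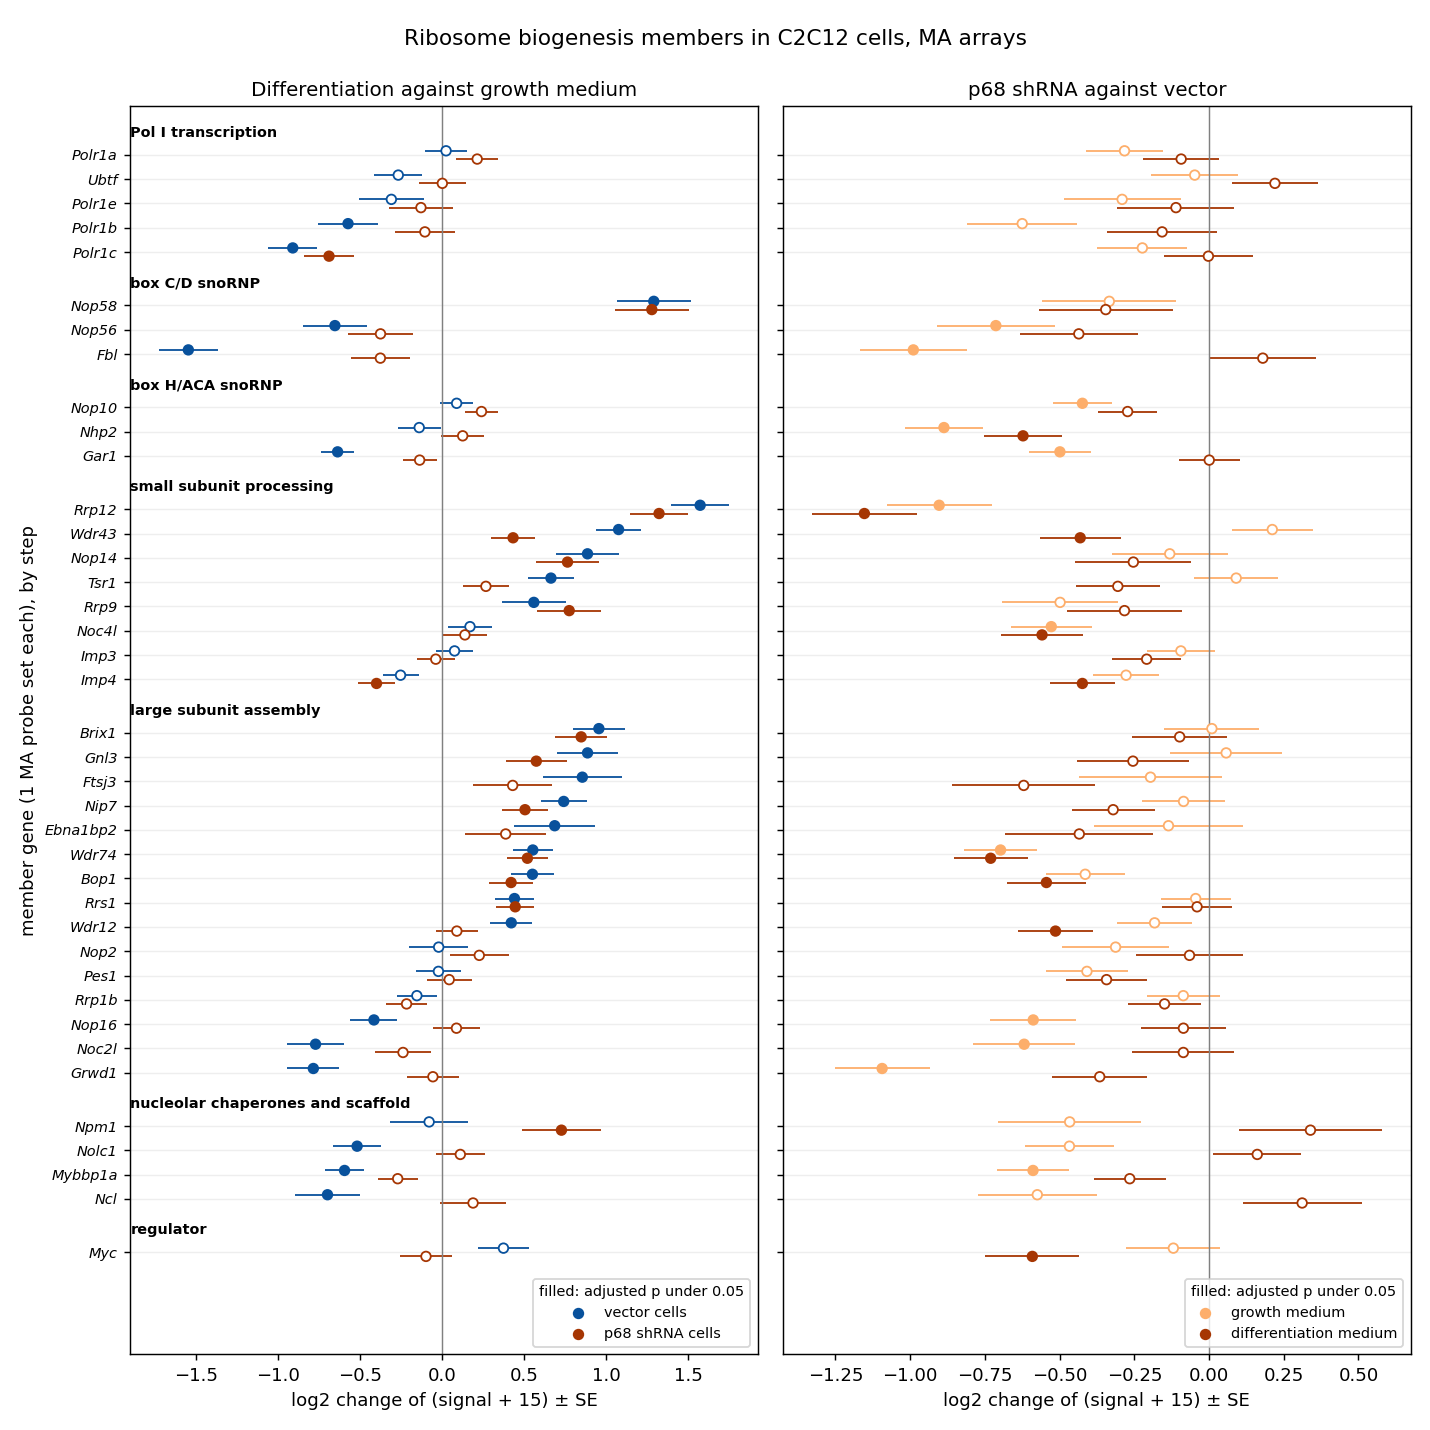
Log2 change of (signal + 15) ± standard error of each of the 39 members on the MA arrays, ordered by step, for DM against GM in vector and shRNA cells (left) and for shRNA against vector in GM and DM (right). Filled points passed an adjusted p of 0.05: on the left these lie on both sides of 0 (15 higher and 11 lower in vector cells), on the right all lie below 0 (12 in GM and 9 in DM).

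Proliferation genes are given beside the members because dividing and non-dividing cells are compared. In vector cells all 15 proliferation genes tested, such as the thymidine kinase Tk1 (-3.83), were lower in DM (median -2.45), and 14 of 15 were in shRNA cells (median -1.28). With the shRNA, 13 of the 15 were higher in DM (median 1.31) and 3 of 15 were lower in GM. Their median centred level was 1.00 to 1.12 in vector cells in GM, 0.74 to 0.89 in shRNA cells in GM, -1.58 to -1.49 in vector cells in DM and -0.38 to -0.26 in shRNA cells in DM. The median over the members, centred in the same way on each gene's mean over the 12 arrays, was 0.044, 0.20 and 0.099 in vector cells in GM, 0.25, 0.20 and 0.12 in vector cells in DM, -0.22, -0.29 and -0.27 in shRNA cells in GM and -0.13, -0.028 and 0.00029 in shRNA cells in DM. On MA every shRNA array was therefore below every vector array in the members' median, in both media. On MB, over 10 members, the same held in DM, but in GM the groups overlapped, with 0.033 in replicate 1 of shRNA cells against 0.020 in replicate 2 of vector cells. The proliferation genes on MA separated GM from DM and, within each medium, also shRNA from vector arrays. Their level was lower with the shRNA in GM and higher in DM. In bulk RNA fewer cells of a kind and less RNA per cell cannot be told apart. Of the myoblast and muscle markers, 4 of 8 were lower with the shRNA in DM, beside 6.67% of all genes. The part that cell division or these markers have in the members' values was not tested.

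**Figure D2:**
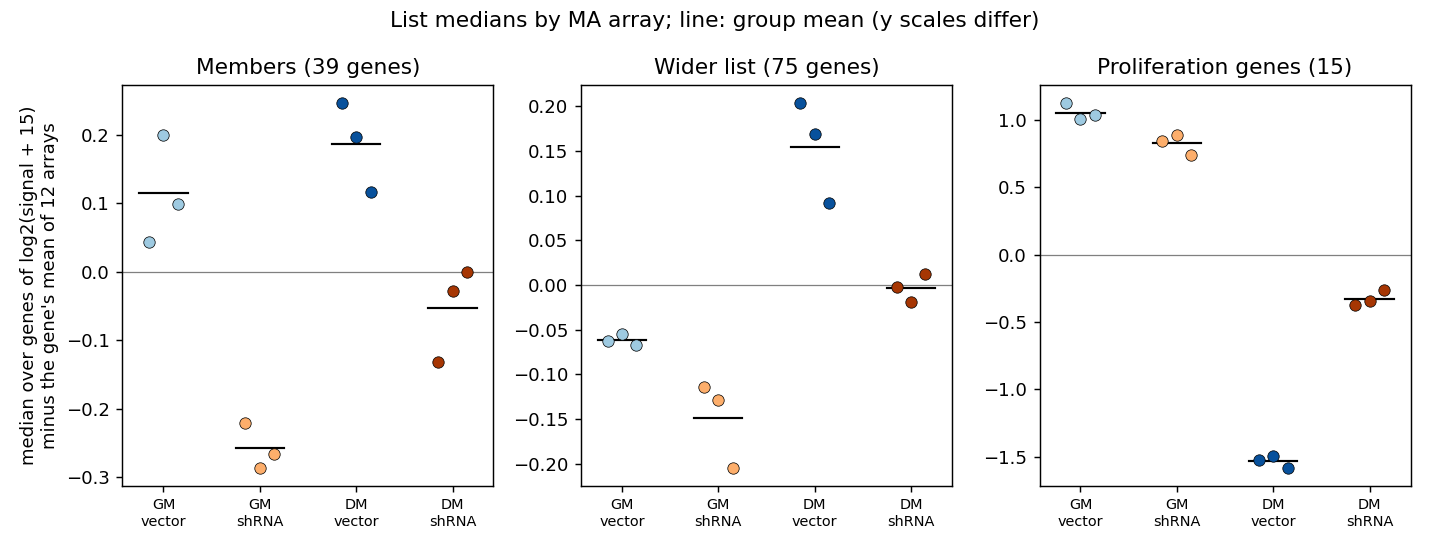
Median over the genes of a list of log2(signal + 15) minus each gene's mean over the 12 MA arrays, 1 point per array, for the members (39 genes), the wider ribosome biogenesis list (75 genes) and the proliferation genes (15), with the mean of each group of 3 as a line. The y scales differ: members in shRNA cells lie between -0.29 and 0.00029 and in vector cells between 0.044 and 0.25, whereas proliferation genes span -1.58 to 1.12.

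Myc, known to raise the transcription of many of the other members, was lower in shRNA than in vector cells in DM. Its signals were 126, 163 and 151 in vector cells in GM, 234, 192 and 161 in vector cells in DM, 139.6, 115 and 147 in shRNA cells in GM and 107, 127 and 138 in shRNA cells in DM. In DM every shRNA array lay below every vector array, while in GM the groups overlapped. The change with the shRNA was -0.59 ± 0.16 (adjusted p = 0.0174) in DM and -0.12 ± 0.16 (adjusted p = 0.748) in GM, and the difference between these, the interaction, was -0.47 ± 0.22 (adjusted p = 0.22). Against GM, Myc in DM changed by 0.37 ± 0.16 (adjusted p = 0.0628) in vector cells and -0.10 ± 0.16 (adjusted p = 0.676) in shRNA cells. The call in DM was lost without replicate 1 of the shRNA cells in DM (-0.50, adjusted p = 0.0818), without replicate 1 of the vector cells in DM (-0.46, adjusted p = 0.065) and with only the 6 DM arrays in the fit (adjusted p = 0.0591). Without replicate 3 of vector cells in DM the DM against GM change in vector cells passed, at 0.50 (adjusted p = 0.0157).

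Of the other genes of the Myc network, 9 were tested on MA: the partner Max, the relatives Mycn and Mycl, and Mxd3, Mxd4, Mxi1, Mnt, Mlx and Mga, most of which pair with Max or Mlx and oppose or modify Myc. In DM against GM, 1 was higher and 4 were lower in vector cells (23.2% and 27.1% of all genes), and likewise in shRNA cells (16.2% and 18.9%). With the shRNA, 1 was higher and 0 lower in GM (3 higher and 1 lower by unadjusted p in limma), and 4 were higher and 0 lower in DM (4 and 0 by unadjusted p). With quantile normalization or with each array centred on its median, 0 were higher in GM and 2 in DM, and with 1 array left out 0 or 1 in GM and 2 to 4 in DM. Over all genes 4.36% were higher with the shRNA in GM and 12.1% in DM. By unadjusted p in limma, 12.6% of all genes were higher and 8.62% lower in GM, and 19.8% and 11.4% in DM. Of these genes, Mxd3, a Max partner found in cycling cells, fell by 1.98 in DM in vector cells (SE 0.13, adjusted p = 1.29e-08) and by 0.50 in shRNA cells (SE 0.13, adjusted p = 0.00817). Its shRNA against vector change was 1.43 ± 0.13 (adjusted p = 5.15e-06) in DM and -0.046 ± 0.13 (adjusted p = 0.897) in GM, with an interaction of 1.48 ± 0.19 (adjusted p = 0.000189). Mycl rose by 1.11 ± 0.15 and 1.23 ± 0.15 in DM in vector and shRNA cells, and Mxd4 changed by -0.997 ± 0.17 and -0.67 ± 0.17. Mnt changed by -0.77 ± 0.13 and -0.44 ± 0.13. Max, the obligate partner of Myc, did not pass in any comparison (changes between -0.02 and 0.34).

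The promoters of the members were searched for CACGTG, the E-box to which Myc and Max bind and which reads the same on both strands. In the RefSeq promoter table (GRCm38.p6, 250 bases before to 50 bases after each gene start), 35 of the 41 members had a promoter and 7 of the 35 held the motif (20%), as did 15 of 75 genes of the wider list (20%) and 2187 of all 27025 genes of the table (8.09%). The stretches around these 7 matches are shown because they mark which members carry the sequence that Myc recognises, with the motif in capitals:
Grwd1 (GRCm38.p6 chr7:45830740-45830767, - strand): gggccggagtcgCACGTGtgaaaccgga
Imp4 (GRCm38.p6 chr1:34439696-34439725, + strand): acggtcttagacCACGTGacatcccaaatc
Mybbp1a (GRCm38.p6 chr11:72441355-72441376, + strand): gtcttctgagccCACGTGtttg
Nop2 (GRCm38.p6 chr6:125131811-125131840, + strand): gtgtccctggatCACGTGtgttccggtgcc
Pes1 (GRCm38.p6 chr11:3963965-3963994, + strand): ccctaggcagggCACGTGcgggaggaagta
Tsr1 (GRCm38.p6 chr11:74898092-74898121, + strand): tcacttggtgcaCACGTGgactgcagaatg
Wdr43 (GRCm38.p6 chr17:71616220-71616249, + strand): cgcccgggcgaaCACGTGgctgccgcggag
Reading from the gene start, the matches lay 35 bases downstream in Grwd1, 121 bases upstream in Imp4, 41 downstream in Mybbp1a, 60 upstream in Nop2, 3 downstream in Pes1, 25 downstream in Tsr1 and 18 downstream in Wdr43. Among these, Grwd1 and Mybbp1a were lower with the shRNA in GM and Imp4 and Wdr43 were lower in DM, while Nop2, Pes1 and Tsr1 were called in neither. Of the 17 members called lower with the shRNA in either medium, 13 had a promoter and 4 of the 13 held the motif, against 3 of 20 among the tested members that were not called lower. A match is a description of the letters in this window and does not show that Myc binds there. Fbl, Npm1, Bop1, Rrs1, Rrp12 and Myc had no entry.

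At their brightest probe sets none of the RNA polymerase I genes was called higher. Of the 5 genes of this step, 2 were lower in DM in vector cells and 1 in shRNA cells, beside 27.1% and 18.9% of all genes. With the shRNA 0 were called in either medium. Polr1c, a subunit that polymerases I and III share, had signals of 414, 432 and 388 in vector cells in GM, 208, 188 and 242 in vector cells in DM, 372, 356 and 324 in shRNA cells in GM and 193, 277 and 177 in shRNA cells in DM. In both constructs every DM array was below every GM array. It fell by 0.91 in vector cells (SE 0.15, adjusted p = 0.000147) and by 0.69 in shRNA cells (SE 0.15, adjusted p = 0.00255). The second probe set of Polr1c changed by -0.72 ± 0.17 and -0.72 ± 0.17.

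Polr1b encodes the second largest polymerase I subunit, which helps to form the active site. Its signals were 118, 148 and 116 in vector cells in GM, 57.4, 98.1 and 90.2 in vector cells in DM, 72.3, 90.7 and 68.7 in shRNA cells in GM and 83.2, 63.1 and 65.9 in shRNA cells in DM. Vector cells in GM were above all 9 other arrays, which overlapped with each other. Polr1b was lower in DM in vector cells, with -0.57 ± 0.18 (adjusted p = 0.0178), but this call was lost without replicate 1 of vector cells in DM (-0.38, adjusted p = 0.0897) or replicate 3 of vector cells in GM (-0.47, adjusted p = 0.080). In shRNA cells the change was -0.10 ± 0.18 (adjusted p = 0.705). With the shRNA in GM the change of -0.62 ± 0.18 did not pass (adjusted p = 0.0578) but lay near the threshold. It passed in 6 of the 10 settings other than leaving out an array: with a pseudocount of 50 (adjusted p = 0.0465), a signal of at least 100 (0.0458), quantile normalization (0.0484), median centring (0.0427), only the 6 GM arrays (0.0244) and the mean of probe sets (0.0381). It also passed without replicate 1 (adjusted p = 0.0241) or replicate 3 (adjusted p = 0.0372) of vector cells in DM. Polr1a, the largest subunit, Polr1e and the promoter factor Ubtf, which loads the polymerase onto ribosomal DNA, were called in no comparison at their brightest probe sets. Dimmer probe sets of these genes gave other calls. A second Ubtf probe set was higher in DM, with 0.51 ± 0.18 (adjusted p = 0.0262) in vector cells and 0.59 ± 0.18 (adjusted p = 0.0195) in shRNA cells, where the brightest changed by -0.27 ± 0.14 and 0.0016 ± 0.14. A dimmer Polr1a probe set was higher in DM in vector cells, with 0.59 ± 0.21 (adjusted p = 0.029), and changed by 0.55 ± 0.21 (adjusted p = 0.0556) in shRNA cells. Another Polr1a probe set was lower with the shRNA in DM, with -0.94 ± 0.29 (adjusted p = 0.0392).

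The 3 box C/D proteins, which together form the core that methylates ribosomal RNA, went separate ways. Fbl encodes fibrillarin, the methyltransferase of the complex, and had signals of 1389, 1439 and 1410.4 in vector cells in GM, 536, 384 and 518 in vector cells in DM, 892, 576 and 679 in shRNA cells in GM and 415, 584 and 646 in shRNA cells in DM. Vector cells in GM stood apart at 1389 to 1439, and the other 9 arrays lay between 384 and 892. Fbl fell by 1.54 from GM to DM in vector cells (SE 0.18, adjusted p = 4.87e-06), the largest fall among the members at the probe sets used. At the second, dimmer Fbl probe set the fall was smaller, from a mean signal of 790 to 503. In shRNA cells Fbl changed by -0.38 ± 0.18 (adjusted p = 0.125) at its brightest probe set, and the groups overlapped. With the shRNA it was lower in GM, at -0.99 ± 0.18 (adjusted p = 0.00493), and not in DM, at 0.18 ± 0.18 (adjusted p = 0.56). The interaction was 1.17 ± 0.25 (adjusted p = 0.00932), and the second Fbl probe set gave 0.74 ± 0.16 (adjusted p = 0.0102). The comparisons with vector cells in GM share those 3 arrays, so the fall in DM and the fall with the shRNA are not independent of each other.

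Nop56 and Nop58 are paralogous scaffold proteins of the same complex. Nop56 signals were 591, 746 and 525 in vector cells in GM, 549.9, 389 and 266 in vector cells in DM, 382, 363 and 362 in shRNA cells in GM and 307, 262 and 276 in shRNA cells in DM. In GM every shRNA array was below every vector array, while vector cells in DM spread over both. Nop56 was lower in DM in vector cells (-0.65 ± 0.20, adjusted p = 0.0127) and lower with the shRNA in GM (-0.71 ± 0.20, adjusted p = 0.0443), again against the same 3 arrays. The first call was lost without replicate 3 of vector cells in GM (-0.52, adjusted p = 0.067). The second was lost in 10 of the 12 fits that left out 1 array, those without any array of the 2 GM groups, any shRNA array in DM or replicate 2 of vector cells in DM, with changes between -0.82 and -0.58 and adjusted p up to 0.194. Without replicate 3 of vector cells in DM, Nop56 was also lower with the shRNA in DM (-0.69, adjusted p = 0.00766) and in DM against GM in shRNA cells (-0.37, adjusted p = 0.0499).

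Nop58 signals were 135, 109 and 129.9 in vector cells in GM, 302, 479 and 236 in vector cells in DM, 105, 99.2 and 83.2 in shRNA cells in GM and 336, 193 and 247 in shRNA cells in DM. All 6 DM arrays lay above all 6 GM arrays. Nop58 rose in DM by 1.29 ± 0.22 (adjusted p = 0.000234) in vector cells and 1.28 ± 0.22 (adjusted p = 0.000486) in shRNA cells, which is 2.72 and 2.70 times by the ratio of mean signals. The shRNA against vector changes of -0.33 ± 0.22 in GM and -0.35 ± 0.22 in DM did not pass (adjusted p = 0.458 and 0.337).

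**Figure D3:**
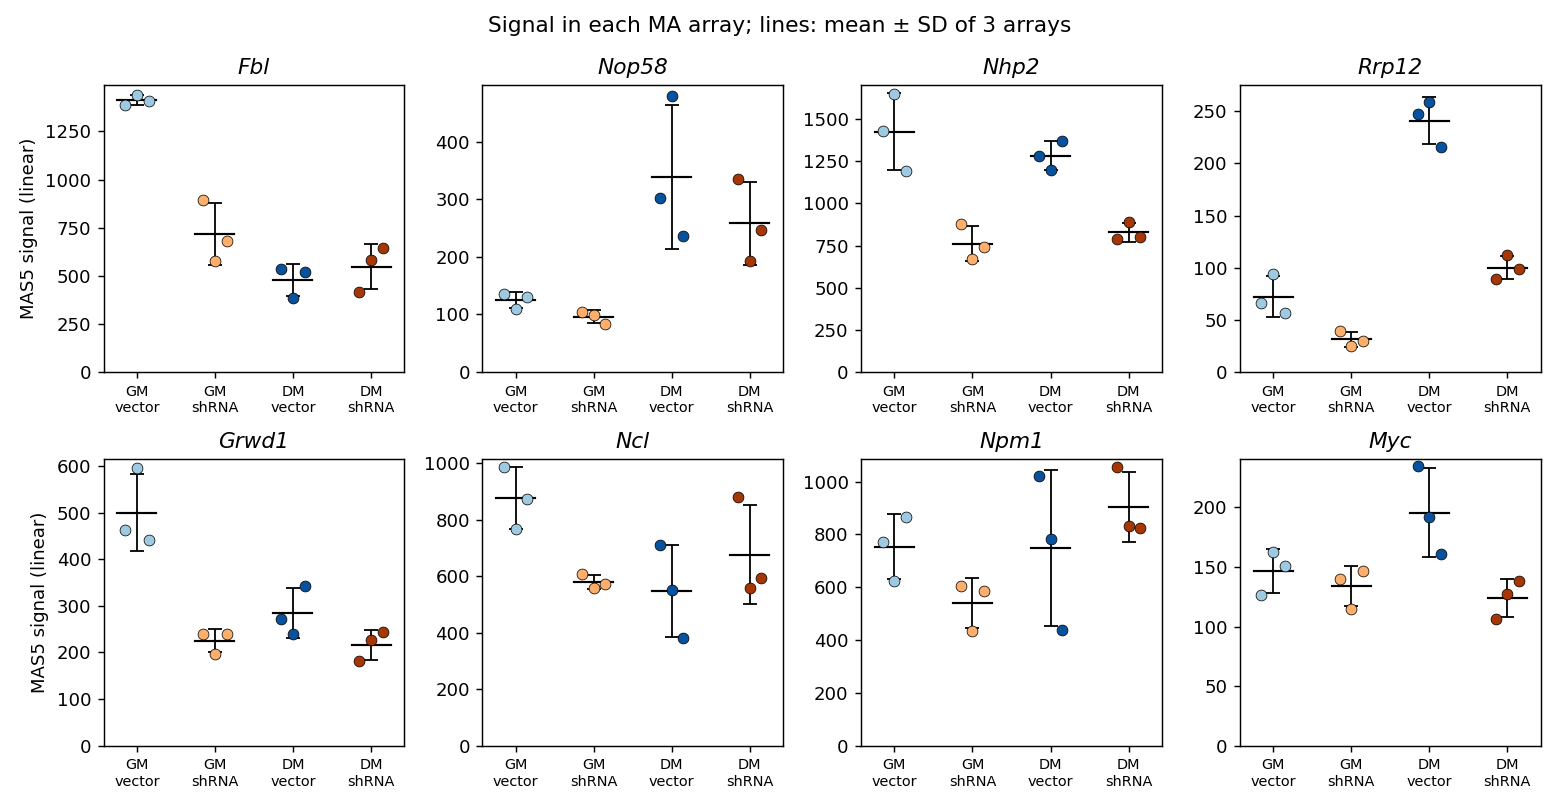
Signal of 8 members in each MA array on a linear axis that starts at 0, 1 point per array, with the mean and SD of each group of 3 as lines. Fbl in vector cells in GM (1389 to 1439) is above its 9 other arrays, Nop58 is higher in all 6 DM arrays, and Nhp2 and Rrp12 are lower in shRNA cells in both media.

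Box H/ACA proteins, the core of the complexes that turn uridine into pseudouridine and also of telomerase, were lower with the shRNA in GM in 3 of 3 genes tested on MA (2.69% of all genes). Nhp2 signals were 1427, 1652 and 1195 in vector cells in GM, 1282, 1198 and 1371 in vector cells in DM, 876, 669.9 and 739 in shRNA cells in GM and 791, 893 and 802 in shRNA cells in DM. All 6 shRNA arrays lay below all 6 vector arrays. Nhp2 fell by 0.89 with the shRNA in GM (SE 0.13, adjusted p = 0.00104) and by 0.62 in DM (SE 0.13, adjusted p = 0.00403), and the interaction was 0.26 ± 0.18 (adjusted p = 0.439). The second Nhp2 probe set changed by -0.84 ± 0.13 and -0.73 ± 0.13. Between the media Nhp2 changed by -0.14 ± 0.13 (adjusted p = 0.405) in vector cells and 0.13 ± 0.13 (adjusted p = 0.499) in shRNA cells.

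Gar1 binds the pseudouridine synthase directly, and Nop10 links it to Nhp2. Gar1 signals were 571, 605 and 546 in vector cells in GM, 359.8, 368 and 364 in vector cells in DM, 436, 357 and 416 in shRNA cells in GM and 366, 355 and 371 in shRNA cells in DM. Vector cells in GM were the highest of the 4 groups with no overlap, and in DM the vector and shRNA arrays overlapped. Gar1 was lower in DM in vector cells (-0.64 ± 0.10, adjusted p = 0.00012) and not called in shRNA cells (-0.14 ± 0.10, adjusted p = 0.338). With the shRNA it was lower in GM (-0.50 ± 0.10, adjusted p = 0.0101), a call that was lost without replicate 3 of vector cells in GM (-0.46, adjusted p = 0.0536). Its interaction of 0.50 ± 0.15 (adjusted p = 0.0425) was lost in 10 of the 12 fits that left out 1 array, all but those without replicate 3 of vector cells in DM or replicate 2 of shRNA cells in GM, with values of 0.42 to 0.53 in those 10 and adjusted p up to 0.101.

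Nop10 signals were 1956, 2215 and 2122 in vector cells in GM, 2059, 2219.6 and 2423 in vector cells in DM, 1613, 1567 and 1498 in shRNA cells in GM and 1724, 1992 and 1823 in shRNA cells in DM. The shRNA arrays in GM were the lowest 3 of the 12. Nop10 fell by 0.42 with the shRNA in GM (SE 0.10, adjusted p = 0.0194) and changed by -0.27 ± 0.10 (adjusted p = 0.0746) in DM, where a dimmer probe set was lower (-0.40 ± 0.10, adjusted p = 0.0149). The GM call was lost without replicate 3 (-0.43, adjusted p = 0.0556) or 4 (-0.40, adjusted p = 0.0756) of shRNA cells in GM and without replicate 3 (-0.38, adjusted p = 0.0963) or 4 (-0.41, adjusted p = 0.0628) of vector cells in GM. The DM change passed without replicate 1 of vector cells in DM (-0.33, adjusted p = 0.041). The DM against GM change in shRNA cells passed without replicate 3 of vector cells in DM (0.24, adjusted p = 0.047). Dkc1, the pseudouridine synthase dyskerin, was measured on MB only. Its signals for replicates 1, 2 and 3 were 1550.1, 1842 and 1414 in vector cells in GM, 1651, 1371 and 1488 in vector cells in DM, 1558, 1307 and 1249 in shRNA cells in GM and 1728, 1384 and 1404 in shRNA cells in DM. At this probe set, its brightest, the 4 groups overlapped, and its changes lay between -0.22 and 0.22 with none called. A dimmer Dkc1 probe set was lower in DM in vector cells, with a change of -1.25 ± 0.31 (adjusted p = 0.0133) and groups that did not overlap, and its interaction was 0.94 ± 0.44 (adjusted p = 0.575). The third changed by -0.24 ± 0.19 (adjusted p = 0.558) in vector cells.

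Of the 8 small subunit factors, 5 were higher and 0 lower in DM in vector cells (23.2% and 27.1% of all genes). In shRNA cells 4 were higher and 1 lower (16.2% and 18.9% of all genes). With the shRNA 2 of 8 were lower in GM (2.69% of all genes). In DM 4 of 8 were lower with the shRNA (6.67% of all genes), and the change was below 0 in all 8. Rrp12, which takes part in the maturation and export of pre-ribosomal particles, had signals of 65.9, 94.1 and 56.7 in vector cells in GM, 247, 259 and 216 in vector cells in DM, 39.3, 24.6 and 30.1 in shRNA cells in GM and 89.4, 112 and 98.8 in shRNA cells in DM. The 4 groups were ordered without overlap except that the highest vector array in GM was within the range of the shRNA arrays in DM. Rrp12 had the largest rise of all members in DM, 1.57 ± 0.18 (adjusted p = 3.32e-06) in vector cells and 1.32 ± 0.18 (adjusted p = 4.16e-05) in shRNA cells. It was lower with the shRNA, with changes of -0.90 ± 0.18 (adjusted p = 0.0072) in GM and -1.15 ± 0.18 (adjusted p = 0.000406) in DM, where the mean shRNA signal was 0.42 of the vector signal. Its interaction was -0.25 ± 0.25 (adjusted p = 0.606).

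Wdr43, a member of the processome subcomplex that also acts in polymerase I transcription, had signals of 122, 94.5 and 108 in vector cells in GM, 237, 276 and 219 in vector cells in DM, 132, 139.8 and 110.1 in shRNA cells in GM and 189, 172 and 169 in shRNA cells in DM. Every DM array was above every GM array, and in DM the shRNA arrays were below the vector arrays. Wdr43 rose in DM by 1.07 ± 0.14 (adjusted p = 1.16e-05) in vector cells and by 0.43 ± 0.14 (adjusted p = 0.0235) in shRNA cells, and the interaction was -0.64 ± 0.19 (adjusted p = 0.0483). With the shRNA it changed by -0.43 ± 0.14 (adjusted p = 0.0422) in DM and 0.21 ± 0.14 (adjusted p = 0.432) in GM. The interaction was lost in 9 of the 12 fits without 1 array, all but those without replicate 3 of vector cells in DM, replicate 4 of shRNA cells in GM or replicate 1 of vector cells in GM (-0.69 to -0.55, adjusted p up to 0.115). The DM call with the shRNA was lost in 7 of 12, those without any shRNA array in DM, replicate 1 or 2 of vector cells in DM, replicate 2 of shRNA cells in GM or replicate 4 of vector cells in GM (adjusted p up to 0.156). The rise in shRNA cells was lost without replicate 1 (0.39, adjusted p = 0.0867) or 2 (0.45, adjusted p = 0.051) of shRNA cells in DM or replicate 4 of shRNA cells in GM (0.34, adjusted p = 0.107). A second, dimmer Wdr43 probe set changed by 0.047 ± 0.23 with the shRNA in DM, with an interaction of 0.27 ± 0.33.

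Nop14, a processome protein, had signals of 53.3, 72.7 and 62.2 in vector cells in GM, 138, 141 and 107 in vector cells in DM, 42.7, 71.1 and 55.8 in shRNA cells in GM and 89.2, 92.4 and 139 in shRNA cells in DM. All 6 DM arrays were above all 6 GM arrays, and the vector and shRNA arrays overlapped in each medium. Nop14 rose by 0.89 ± 0.19 (adjusted p = 0.0015) in vector cells and 0.76 ± 0.19 (adjusted p = 0.00692) in shRNA cells. Noc4l, a partner of Nop14, was lower with the shRNA in both media, with mean signals of 426 ± 38.2 against 290.3 ± 17.6 in GM and 479.9 ± 23.8 against 325 ± 63.5 in DM (SD, n = 3), changes of -0.53 ± 0.14 (adjusted p = 0.0314) and -0.56 ± 0.14 (adjusted p = 0.0103). Its other 2 MA probe sets were lower too, with shRNA against vector changes of -0.64 ± 0.18 and -0.70 ± 0.15 in GM and -0.81 ± 0.18 and -0.49 ± 0.15 in DM. From GM to DM the last of these also fell in vector cells, with a change of -0.49 ± 0.15 (adjusted p = 0.0137). The brightest MA probe set changed there by 0.17 ± 0.14. A brighter Noc4l probe set on MB was not called. Its mean signals were 1482 in GM and 828 in DM in vector cells, and 908 and 566 in shRNA cells. In both kinds of cell every DM array on MB was below every GM array.

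Imp4, part of the complex that pairs U3 snoRNA with the precursor, was the only small subunit member called lower in DM on MA, in shRNA cells (-0.40 ± 0.11, adjusted p = 0.0114), and it was lower with the shRNA in DM (-0.42 ± 0.11, adjusted p = 0.015). The brighter Imp4 probe set on MB went the other way from GM to DM but was not called. Its mean signals there were 403 and 436 in shRNA cells and 329 and 499 in vector cells. In DM the shRNA mean was below the vector mean on MB too. Rrp9, the U3 snoRNP protein, rose by 0.56 ± 0.19 in vector cells and 0.77 ± 0.19 in shRNA cells. Tsr1, a late small subunit factor, was measured on both designs. On MA it rose by 0.66 ± 0.14 (adjusted p = 0.00115) in DM in vector cells and changed by 0.27 ± 0.14 (adjusted p = 0.162) in shRNA cells. On MB its signals for replicates 1, 2 and 3 were 1436, 1431 and 1094 in vector cells in GM, 2738, 2012 and 2087 in vector cells in DM, 1529, 1137 and 1218 in shRNA cells in GM and 1621, 1626 and 1799 in shRNA cells in DM. Vector arrays in DM were the highest and did not overlap with the other groups. The MB change in vector cells was 0.78 ± 0.17 (adjusted p = 0.005), and at the probe sets used it was the only call among the 10 members tested on MB in any comparison (3 calls in this one with the mean of all probe sets of a gene, and 0 with eBayes without a trend). For DM against GM on MB, 6.11% of all genes were higher and 7.9% lower in vector cells, and 3.2% and 4.44% in shRNA cells. With the shRNA on MB, 0.403% were higher and 0.0805% lower in GM, and 1.35% and 0.667% in DM. For the interaction these shares were 0.449% and 0.288%. By unadjusted p, limma gave 3, 2, 2, 1 and 1 of the 10 members for the DM against GM change in vector cells, that in shRNA cells, the shRNA change in GM, that in DM and the interaction, beside 26.5%, 20.3%, 9.06%, 13.5% and 10.6% of all genes tested on MB. The median residual SD was 0.523 on MB and 0.214 on MA.

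Large subunit factors were called in both directions in DM. Of the 15 genes, 9 were higher and 3 lower in DM in vector cells (23.2% and 27.1% of all genes). In shRNA cells 6 were higher and 0 lower (16.2% and 18.9% of all genes). With the shRNA 4 of 15 were lower in GM (2.69% of all genes). In DM 3 of 15 were lower with the shRNA (6.67% of all genes), and the change was below 0 in all 15. Brix1, a large subunit assembly factor, had signals of 198, 146 and 197 in vector cells in GM, 412, 392 and 289 in vector cells in DM, 183, 200.0 and 159 in shRNA cells in GM and 384, 320.0 and 307 in shRNA cells in DM. All 6 DM arrays were above all 6 GM arrays, and vector and shRNA arrays overlapped in both media. Brix1 rose by 0.95 ± 0.16 (adjusted p = 0.000159) in vector cells and 0.85 ± 0.16 (adjusted p = 0.000831) in shRNA cells, and changed with the shRNA by 0.0096 ± 0.16 in GM and -0.10 ± 0.16 in DM (adjusted p = 0.986 and 0.739).

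Gnl3 encodes nucleostemin, a nucleolar GTP-binding protein known from stem and tumour cells. Its signals were 225, 211 and 208 in vector cells in GM, 501, 493 and 275 in vector cells in DM, 228, 224 and 219.6 in shRNA cells in GM and 405, 291 and 334 in shRNA cells in DM. Every DM array was above every GM array, with replicate 3 of vector cells in DM well below the other vector arrays of that medium. Gnl3 rose by 0.89 ± 0.19 (adjusted p = 0.00113) in vector cells and 0.57 ± 0.19 (adjusted p = 0.0276) in shRNA cells. The second call was lost without replicate 1 (0.45, adjusted p = 0.121) or 3 (0.59, adjusted p = 0.0585) of shRNA cells in DM and without replicate 2 (0.59, adjusted p = 0.0602), 3 (0.57, adjusted p = 0.0654) or 4 (0.56, adjusted p = 0.0706) of shRNA cells in GM. The change with the shRNA in DM, -0.25 ± 0.19 (adjusted p = 0.403), was -0.53 (adjusted p = 0.0113) without replicate 3 of vector cells in DM, and the interaction then passed too (-0.58, adjusted p = 0.0386).

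Grwd1, a histone-binding WD-repeat protein linked to large subunit assembly, had signals of 464, 595 and 442 in vector cells in GM, 271, 240.0 and 343 in vector cells in DM, 239, 197 and 239 in shRNA cells in GM and 181, 226 and 244 in shRNA cells in DM. Vector cells in GM were above all other arrays. With the shRNA in GM Grwd1 had the lowest value of all members, -1.09 ± 0.16 (adjusted p = 0.00101), and changed by -0.37 ± 0.16 (adjusted p = 0.139) in DM. From GM to DM it fell by 0.78 in vector cells (SE 0.16, adjusted p = 0.000838) and changed by -0.056 ± 0.16 (adjusted p = 0.823) in shRNA cells. The interaction of 0.73 ± 0.22 did not pass (adjusted p = 0.0549), but passed without replicate 1 of shRNA cells in DM (0.84, adjusted p = 0.0381) or replicate 3 of vector cells in DM (0.86, adjusted p = 0.0148). Noc2l and Nop16 had the same calls as Grwd1, with DM against GM changes of -0.77 ± 0.17 and -0.41 ± 0.14 in vector cells and shRNA changes in GM of -0.62 ± 0.17 and -0.59 ± 0.14. On MB, however, the Noc2l probe set changed by 0.50 ± 0.44 (adjusted p = 0.906) with the shRNA in GM, with every shRNA array above every vector array.

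The PeBoW complex, formed by Pes1, Bop1 and Wdr12, is needed to process the large subunit RNA. Bop1 rose in DM by 0.55 ± 0.13 in vector cells and 0.42 ± 0.13 in shRNA cells and was lower with the shRNA in DM (-0.54 ± 0.13, adjusted p = 0.0102). Wdr12 rose by 0.42 ± 0.13 (adjusted p = 0.0123) in vector cells, changed by 0.09 ± 0.13 (adjusted p = 0.629) in shRNA cells and was lower with the shRNA in DM (-0.51 ± 0.13, adjusted p = 0.0112). Pes1 was not called in any comparison, with shRNA changes of -0.41 ± 0.14 in GM and -0.34 ± 0.14 in DM. Wdr74, another large subunit assembly factor, had mean signals of 245 ± 28.7 in vector and 145 ± 14.4 in shRNA cells in GM and 365 ± 22.4 and 214 ± 18.8 in DM (SD, n = 3). It rose in DM in both constructs and was lower with the shRNA, with changes of -0.70 ± 0.12 (adjusted p = 0.00406) in GM and -0.73 ± 0.12 (adjusted p = 0.000886) in DM, to 0.59 of the vector signal in each medium. Nip7, Rrs1, Ebna1bp2 and Ftsj3 rose in DM in vector cells, by 0.44 to 0.85, of which Nip7 and Rrs1 also passed in shRNA cells. A brighter Rrs1 probe set on MB was not called and did not rise in vector cells. Its mean signals were 978 in GM and 945 in DM in vector cells, and 732 and 843 in shRNA cells.

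The nucleolar chaperones and scaffold proteins were lower in DM in vector cells in 3 of the 4 genes measured (27.1% of all genes), and Npm1 was higher in DM in shRNA cells. Ncl encodes nucleolin, an abundant nucleolar RNA-binding protein, and had signals of 987, 767 and 875 in vector cells in GM, 710.3, 552 and 383 in vector cells in DM, 608, 559.9 and 574 in shRNA cells in GM and 881, 557 and 595 in shRNA cells in DM. Vector cells in GM were above the vector cells in DM and above the shRNA cells in GM, while in DM vector and shRNA cells overlapped. Ncl fell by 0.70 in DM in vector cells (SE 0.20, adjusted p = 0.00906) and changed by 0.19 ± 0.20 (adjusted p = 0.508) in shRNA cells. Its shRNA changes were -0.57 ± 0.20 (adjusted p = 0.107) in GM and 0.31 ± 0.20 (adjusted p = 0.328) in DM, and the interaction was 0.89 ± 0.28 (adjusted p = 0.0619). Without replicate 3 of vector cells in DM the GM change passed (-0.57, adjusted p = 0.032), and without replicate 1 of that group the interaction passed (1.09, adjusted p = 0.0147). The other 3 Ncl probe sets were dimmer, and the mean over all 4 gave -0.20 in DM in vector cells (adjusted p = 0.323).

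Npm1 encodes nucleophosmin, a histone and ribosomal protein chaperone. Its signals were 770.4, 622 and 868 in vector cells in GM, 1023, 783 and 438 in vector cells in DM, 606, 433 and 587 in shRNA cells in GM and 1056, 831 and 823 in shRNA cells in DM. Vector cells in DM spread from 438 to 1023 and covered all other groups' means, while shRNA cells in DM were above all shRNA cells in GM. Npm1 rose by 0.73 ± 0.24 (adjusted p = 0.0293) in DM in shRNA cells and changed by -0.079 ± 0.24 (adjusted p = 0.813) in vector cells, with an interaction of 0.81 ± 0.34 (adjusted p = 0.163). The rise was lost without replicate 1 (0.61, adjusted p = 0.113) or 2 (0.78, adjusted p = 0.0506) of shRNA cells in DM or replicate 3 of shRNA cells in GM (0.58, adjusted p = 0.124). Without replicate 1 of vector cells in DM the interaction passed, at 1.07 (adjusted p = 0.0352). With the shRNA Npm1 changed by -0.47 ± 0.24 (adjusted p = 0.299) in GM and 0.34 ± 0.24 (adjusted p = 0.382) in DM. A second Npm1 probe set had a higher mean in DM in both constructs. Its mean signals were 373 in GM and 537 in DM in vector cells, where the arrays overlapped. In shRNA cells they were 318 and 687, with every DM array above every GM array.

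Mybbp1a, a Myb-binding nucleolar protein that acts in polymerase I repression and p53 control, had signals of 952, 1128 and 818 in vector cells in GM, 628, 578 and 688 in vector cells in DM, 611, 679.9 and 607 in shRNA cells in GM and 500.5, 525 and 539 in shRNA cells in DM. In both media the shRNA arrays were below the vector arrays. Mybbp1a fell by 0.59 in DM in vector cells (SE 0.12, adjusted p = 0.000845) and by the same amount with the shRNA in GM (-0.59 ± 0.12, adjusted p = 0.00983), both measured against vector cells in GM. The shRNA call in GM was lost without replicate 3 of vector cells in GM (-0.47, adjusted p = 0.0556). In DM the shRNA change was -0.27 ± 0.12 (adjusted p = 0.158). A second Mybbp1a probe set changed by -0.51 ± 0.13 with the shRNA in GM and by 0.013 in DM in vector cells. Nolc1, a chaperone of snoRNPs, was lower in DM in vector cells (-0.52 ± 0.15, adjusted p = 0.00917), while its 2 dimmer probe sets changed by 0.25 ± 0.20 and 0.06 ± 0.24.

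Where a member had more than 1 MA probe set tested, the others mostly had the sign of the brightest with the shRNA. Of 26 such probe sets over 19 genes, 24 had the same sign for the shRNA change in GM and 20 in DM, 16 for DM against GM in vector cells, 15 in shRNA cells and 14 for the interaction. None was called in the direction opposite to a call of the probe set used, although a dimmer probe set passed in some comparisons where the brightest did not, as for Ubtf and Polr1a. Over all 65 tested probe sets 0 were higher and 18 lower with the shRNA in GM, and 0 and 14 in DM, beside 3.99% higher and 2.57% lower of all 14367 probe sets in GM and 10.7% and 6.24% in DM.

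Other genes of the pathway came from a list of 94 that does not overlap with the members. Of 75 tested on MA, 28 were higher and 12 lower in DM in vector cells (median 0.21), beside 23.2% and 27.1% of all genes. In shRNA cells 20 were higher and 4 lower (median 0.088), beside 16.2% and 18.9% of all genes. With the shRNA 1 was higher and 5 lower in GM (median -0.082), and 0 higher and 12 lower in DM (median -0.21). By unadjusted p, limma gave 2 higher and 24 lower in DM, beside 19.8% and 11.4% of all genes. The 12 lower ones were 7 of 28 small subunit factors, 3 of 29 large subunit factors and 2 of 9 exosome subunits, with 0 of 9 polymerase I genes. The counts lower with the shRNA moved with the settings: in GM 5 with quantile normalization, 8 with each array centred on its median and 1 to 10 with 1 array left out, the 10 being without replicate 3 of vector cells in DM, and in DM 16, 17 and 6 to 16. Median centring and leaving out arrays were added for this and the other lists after the data were seen. As shares, 30.8% of the members and 6.67% of the wider list were lower with the shRNA in GM, beside 2.69% of all genes. In DM the shares were 23.1% and 16%, beside 6.67% of all genes. A further 16 genes of this list were tested on MB alone. There 2 were higher in DM in vector cells, beside 6.11% of all genes tested on MB. With the shRNA 0 of the 16 were called in either medium (2 and 1 by unadjusted p in limma).

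The 4 largest called changes in the wider list were rises in DM in vector cells. Pno1, which guides the last cut of the small subunit RNA, rose by 1.55 ± 0.15 (adjusted p = 8.48e-07) in vector cells and 0.74 ± 0.15 (adjusted p = 0.0015) in shRNA cells, and was lower with the shRNA in DM (-0.79 ± 0.15, adjusted p = 0.00233). Exosc9, a subunit of the RNA exosome, rose by 1.49 ± 0.28 and 1.14 ± 0.28, Utp11 of the processome by 1.42 ± 0.15 and 0.65 ± 0.15, and Rpf2, which recruits 5S RNA, by 1.41 ± 0.23 and 0.93 ± 0.23. The interaction passed for 6 of the 75, 1 above and 5 below 0 (1.33% and 6.67%, beside 6.01% and 4.57% of all genes). With 1 array left out it passed for 0 to 4 above and 1 to 8 below 0. It was below 0 for Utp11, Dcaf13, Pno1, Ltv1 and Nsa2 and above 0 for Polr1h, genes chosen here after their values were seen. Nsa2, a large subunit factor, was the one gene higher with the shRNA in GM (0.97 ± 0.17, adjusted p = 0.00323).

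Ribosomal proteins are the structural parts that these factors assemble. The 24 genes tested on MA were chosen by a ribosomal protein symbol alone. Probe sets with several gene symbols were left out, so any ribosomal protein gene measured only by such probe sets is missing. The choice took in Rpl7l1, an L7-like gene that may not be a structural part of the ribosome. In DM in vector cells 3 were higher (Rpl7, Rpl27a and Rpl4) and 3 lower (Rpl11, Rpl7l1 and Rpl37), beside 23.2% and 27.1% of all genes. In shRNA cells 0 were higher and 2 lower (Rpl22 and Rpl7l1), beside 16.2% and 18.9%. With the shRNA 0 were called by limma in either medium. By unadjusted p in limma, 3 were higher and 3 lower in GM, beside 12.6% and 8.62% of all genes. In DM 1 was higher and 2 were lower by unadjusted p, beside 19.8% and 11.4% of all genes. These counts are small and moved with the settings. With quantile normalization 1 was higher and 5 lower in DM in vector cells, 4 were lower in DM in shRNA cells and 1 was higher with the shRNA in GM. With median centring 2 were higher and 3 lower in vector cells, 3 were lower in shRNA cells and 1 was lower with the shRNA in DM. With 1 array left out, 0 to 2 were higher and 2 to 4 lower in vector cells, 0 to 1 and 0 to 2 in shRNA cells, 0 to 1 each with the shRNA in GM, and 0 and 0 to 2 in DM. Their median changes with the shRNA were -0.15 in GM and -0.11 in DM, against -0.33 and -0.27 for the members.

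**Figure D4:**
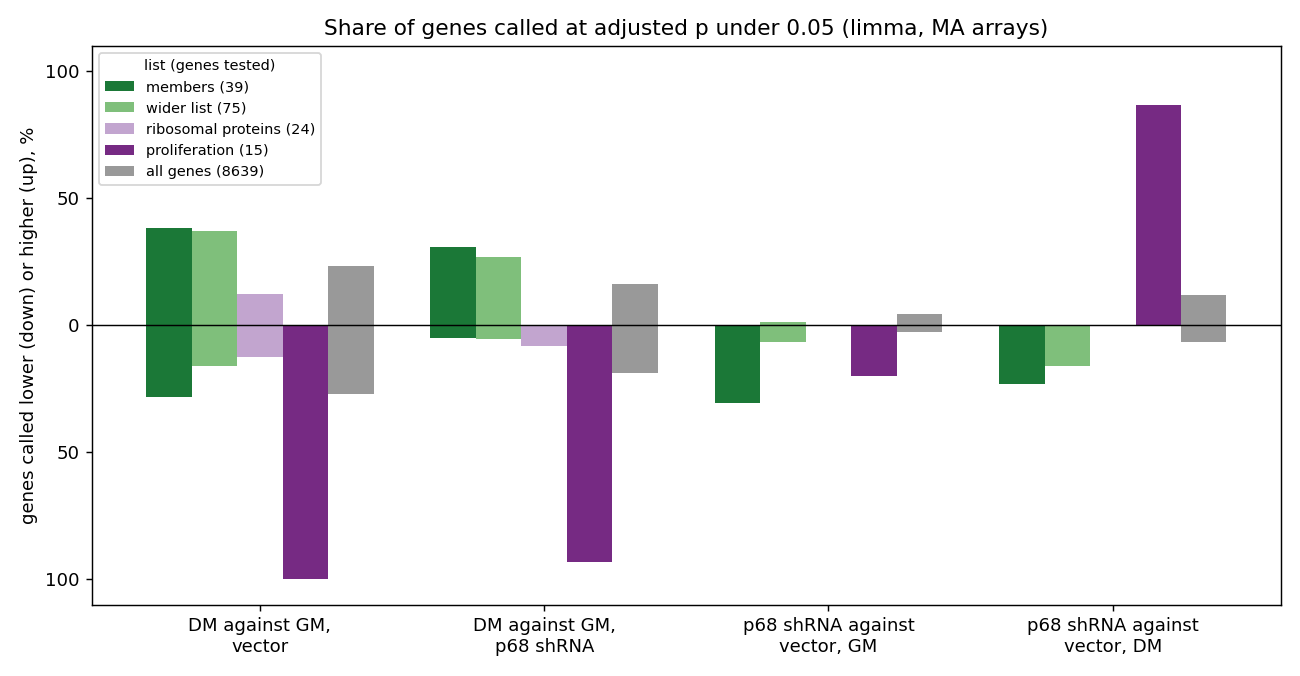
Percent of genes called higher (bars above 0) or lower (bars below 0) at an adjusted p under 0.05 on the MA arrays, for the members (39 genes tested), the wider ribosome biogenesis list (75), ribosomal proteins (24), proliferation genes (15) and all genes (8639), in 4 comparisons. With the shRNA the members have bars only below 0 (30.8% in GM and 23.1% in DM), while 12.1% of all genes were higher in DM.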

How the data were processed

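The authors deposited 1 intensity per probe set for each of 24 arrays, as MAS5 signals on a linear scale per the submitters' processing notes (version and settings not given in the sources used here). Detection calls were not used. Arrays have no read depth, and the number of arrays (3 per group) limits the precision.

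Probe sets were named from the platform annotation, using those with exactly 1 gene symbol and leaving out controls. Signals were taken as deposited, and log2(signal + 15) was tested with limma 3.58.1 in R 4.3.3 (group means of 4 groups over 12 arrays per design, eBayes with a trend), over probe sets with a signal of at least 30 in at least 3 arrays. The calculation was tested on simulated data with known changes. P-values were adjusted by the Benjamini-Hochberg method over all probe sets tested in a design, with a threshold of 0.05. The designs were fitted separately.

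The members and the lists (wider ribosome biogenesis genes, Myc network, proliferation genes and cell type markers) were chosen with earlier results of these data known. Arrays are shown one by one for Myc, Fbl, Ncl, Npm1, Nhp2 and Polr1b and for up to 3 members per step with the largest change among those called; up to 4 genes of the Myc network and of the wider list were named by the same size rule. Single arrays are shown also for Dkc1 and for Tsr1 on MB.

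Same-numbered arrays of different groups had correlations of their deviations from the group means of -0.14 to 0.29 on MA (13 pairs, median 0.093). Differently numbered arrays had -0.28 to 0.20 (41 pairs, median -0.024). The numbers were not taken as pairs in the main fit, and whether a shared number marks a shared batch was not tested. A fit with the replicate number as a block was run as an alternative. Alternatives were pseudocounts of 5 and 50, no filter, a signal of 100, quantile normalization, median centring, no trend, a replicate block, only the arrays compared, the mean of a gene's probe sets, and leaving out each array. Promoter sequences came from RefSeq (GRCm38.p6).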

Additional observations from a re-analysis of the deposited data

Results flagged for a closer look

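The DM against GM change differed between shRNA and vector cells for 3 members, by the interaction in limma over the 12 MA arrays. For Fbl, the box C/D methyltransferase, the difference was 1.17 (adjusted p = 0.00932): the signal fell in DM in vector cells and the change in shRNA cells did not pass. For Gar1 of the box H/ACA complexes it was 0.50 (adjusted p = 0.0425), with a fall in DM that passed in vector cells alone. For Wdr43 of the small subunit processome it was -0.64 (adjusted p = 0.0483), with a rise in DM in both kinds of cell. The share of all genes with an interaction past the threshold was 6.01% above 0 and 4.57% below 0, against 2 and 1 of the 39 members. Fbl passed with each of the 12 arrays left out and under every other setting that was run, while Gar1 was lost in 10 and Wdr43 in 9 of the 12 fits without 1 array.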

How the results depend on the processing

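Of the counts of members on MA, the interaction moved most with the settings. Its 3 calls became 5 with a signal of at least 100 and 1 with quantile normalization or without a trend; the 2 above 0 became 4 with a signal of 100 and 1 with quantile normalization, median centring or no trend; and the 1 below 0 became 0 with a pseudocount of 5, no filter, quantile normalization, no trend, the replicate block and the mean of a gene's probe sets. With only the arrays compared, the 2 members lower in DM in shRNA cells became 4 and the 9 lower with the shRNA in DM became 5. On MB the 1 call for DM against GM in vector cells became 2 with a signal of 100 or quantile normalization, 0 without a trend and 3, of which 2 higher and 1 lower, with the mean of probe sets; in shRNA cells the 0 calls became 1, higher, with quantile normalization. The counts lower with the shRNA lay between 8 and 16 in GM and between 5 and 11 in DM over the settings other than leaving out arrays.

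Leaving out each array in turn, the MA counts were 21 to 26 for DM against GM in vector cells (13 to 15 higher, 8 to 11 lower), 10 to 16 in shRNA cells (8 to 13 higher, 1 to 3 lower), 5 to 16 lower with the shRNA in GM, 6 to 13 lower in DM and 1 to 6 for the interaction (1 to 4 above and 0 to 2 below 0). The MB counts stayed at 1 for DM against GM in vector cells and 0 elsewhere.

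Signs turned only for values that had not passed. Nop58's interaction became 0.0062 with a pseudocount of 5 and 0.022 with quantile normalization, and ranged from -0.23 to 0.26 without 1 array. Polr1c with the shRNA in DM became 0.00010 with a pseudocount of 50 (-0.18 to 0.12 without 1 array), Brix1 in GM -0.042 with quantile normalization and -0.059 with median centring (-0.12 to 0.092), Gar1 in DM -0.015 and -0.089 (-0.013 to 0.019), Gnl3 in GM -0.011 with median centring, and Wdr43 in GM -0.0067 with the mean of probe sets. Npm1 in DM against GM in vector cells became 0.19 with the mean of probe sets (-0.34 to 0.26 without 1 array). Without 1 array, Ncl and Grwd1 in DM against GM in shRNA cells ranged from -0.012 to 0.31 and from -0.14 to 0.060, Nop14 in GM from -0.27 to 0.014, and the interactions of Nop14 and Brix1 from -0.30 to 0.021 and from -0.26 to 0.024. Over the settings, the members' median for DM against GM in vector cells lay between -0.021 and 0.11, and for the shRNA in DM between -0.35 and -0.24. The cause of these changes was not tested.

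With the replicate block, the calls of Gnl3 and Wdr43 in DM against GM in shRNA cells (0.48, adjusted p = 0.0688, and 0.36, adjusted p = 0.0838), of Nop56 with the shRNA in GM (-0.64, adjusted p = 0.0864) and of the interactions of Gar1 (0.51, adjusted p = 0.0714) and Wdr43 (-0.65, adjusted p = 0.0641) were lost, while the interaction of Ncl (0.75, adjusted p = 0.0304) and Mybbp1a in DM against GM in shRNA cells (-0.32, adjusted p = 0.0494) passed.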
